A study of Triticum aestivum with 32 samples.

Results

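Ppd1 and ELF3 are genes of the daily clock and of the response to day length in wheat, and 4 gene models of these 2 genes were followed through heat, drought and salt stress in the flag leaf. They were chosen by identifier: TraesCS2A02G081900 and TraesCS2D02G079600 for Ppd1, on chromosomes 2A and 2D, and TraesCS1B02G477400 and TraesCS1D02G451200 for ELF3, on chromosomes 1B and 1D. These are 4 of 269428 gene models in the table, and all 4 had at least 1 TPM in each of the 32 libraries. TPM, the unit of the table, corrects for transcript length and scales every library to the same total of 1000000, so levels of different genes can be set side by side. The names Ppd1 and ELF3 came with the identifiers and could not be checked, because the reference table of wheat genes matched 0 identifiers of this annotation. The copies of these genes on chromosomes 2B and 1A were not analysed here.

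Wheat is a hexaploid with A, B and D subgenomes, and most of its genes exist as near-identical copies called homoeologues. Ppd1 (Photoperiod1) encodes a pseudo-response regulator, a protein class of the plant clock. It advances flowering in long days, and variants that keep it active at night make wheat flower early whatever the day length. ELF3 (EARLY FLOWERING 3) belongs to the evening complex, a night-time repressor of clock output genes. In wheat ELF3 holds down Ppd1 expression at night, and in Arabidopsis the ELF3 protein is also a temperature sensor. Transcripts of both genes vary over the day, and the labels used here do not give the hour at which leaves were collected. A part of the collection hour in any difference between groups was not tested.

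The plants were of the bread wheat cultivar Stettler, and the flag leaf, the uppermost leaf, was sampled. Treatments began 5 weeks after sowing, at Feekes stage 8, with 8 pots each. All groups were grown under 16 h of light and 8 h of darkness, and they formed a complete factorial of 3 stresses with 4 libraries per group. Control pots grew at day and night temperatures of 24 and 18 °C, with water to 100% of field capacity and no added salt. Drought pots received water to 40% of that capacity. The heated groups were moved to a second greenhouse set to 30 °C for part of the day. Salt pots received NaCl at 20 mM, then 40 mM, then 80 mM. The other groups combined heat with drought, salt with drought, salt with heat, and salt with heat and drought. Heat and the second greenhouse cannot be told apart in this design. The labels do not say whether a library is 1 plant or several, while the series text describes the replicates as independent biological samples.

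TPM keep no record of read numbers, so the depth of each library is unknown. The 100 most abundant gene models took between 13.6% and 36.1% of the TPM of a library, with a median of 23.2%. Between 44106 and 53532 gene models reached 1 TPM. Control replicate 3, heat replicates 1 and 3 and salt replicate 3 are said here to stand apart, and results that lean on them are also given without them. The top 100 took 33.5% in control 3, and 36.1% and 32.2% in heat 1 and 3 beside 21.7% and 20.8% in heat 2 and 4. In salt 3 the top 100 took 20.3%, but low-confidence gene models took 21.6%, against a median of 9.28% over libraries. The 4 libraries were picked within their groups after the data were seen, and composition also varied elsewhere. The share of the top 100 was between 26.5% and 33.3% in all 4 drought libraries. In salt with heat it was 17.3% and 13.6% in replicates 1 and 3 but 24.2% and 23.7% in replicates 2 and 4. Because TPM are relative, each comparison was repeated after quantile normalisation, which gives all libraries the same distribution of values, and after median-of-ratios scaling.

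Ppd1 on 2A was the most abundant member in every library, and the order of the other 3 varied. Ppd1 on 2A averaged 17.4 TPM ± 2.90 (SD, n = 32), with libraries from 12.5 to 22.9 TPM. Ppd1 on 2D averaged 11.5 TPM ± 2.06 (SD, n = 32). The 2A copy exceeded the other members in 32 of 32 libraries. ELF3 on 1D averaged 8.59 TPM ± 1.37 (SD, n = 32) and ELF3 on 1B 7.95 TPM ± 1.31 (SD, n = 32). The 1D copy exceeded the 1B copy in 24 of 32 libraries, and Ppd1 on 2D exceeded both ELF3 copies in 28 of 32. In mean level the members stood between the 71.1 and 86.2 percentiles of the 60684 gene models that reached 1 TPM in 4 or more libraries.

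Levels of the 4 genes moved little over the factorial. The coefficient of variation over the 32 libraries was 16.7% for Ppd1 on 2A, 17.9% for Ppd1 on 2D, 16.5% for ELF3 on 1B and 15.9% for ELF3 on 1D. Gene models within 1.5 times the mean of a member had median coefficients between 24.1% and 25.2%. For the ELF3 copies, 4.77% of 11522 such gene models on 1B and 3.66% of 11193 on 1D varied less. For the Ppd1 copies the shares were 10.6% of 7122 on 2A and 12.0% of 9600 on 2D. These shares are descriptions of the table and were not tested.

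Ppd1 on 2A, the most abundant member, had the following levels. The control libraries held 15.5, 16.2, 12.8 and 16.4 TPM, and the heat libraries 12.5, 14.2, 15.4 and 14.0 TPM. The drought libraries held 17.6, 16.1, 17.6 and 14.0 TPM. Both single stresses overlapped the control range. The salt libraries were split, with 22.9 and 22.4 TPM in replicates 1 and 4 and 16.6 and 14.6 TPM in replicates 2 and 3. Heat with drought gave 16.6, 19.8, 19.4 and 21.5 TPM. Under all 3 stresses the values were 22.9, 20.2, 19.7 and 19.7 TPM. In TPM both of these combinations lay above all 4 control libraries, and they were the only groups apart from control for this gene. After quantile normalisation heat with drought (15.6 to 21.5) overlapped control (14.4 to 17.2), while all 3 stresses (18.5 to 19.6) stayed above it. The median gene model rose by 0.09 on the log2(TPM + 1) scale in heat with drought and by 0.17 under all 3 stresses. Groups that lie apart are described here and below, and the share of all gene models that do so was not counted. Salt with drought stayed between 16.1 and 17.7 TPM and salt with heat between 14.4 and 21.3 TPM.

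Ppd1 on 2D had the same lowest and highest groups in TPM. The control libraries held 9.87, 12.8, 8.06 and 9.15 TPM, and the heat libraries 8.87, 11.7, 9.60 and 7.35 TPM. Under all 3 stresses the libraries held 13.7, 13.2, 13.3 and 13.9 TPM, the tightest group of this gene with an SD of 0.355 TPM. In TPM it was also the only group of this gene that lay above all 4 control libraries, in a comparison where the median gene model rose by 0.17 in log2. After quantile normalisation it overlapped control, at 11.4 to 13.8 against 8.36 to 12.3. The other groups averaged 10.8 TPM in drought, 11.5 TPM in salt, 11.4 TPM in heat with drought, 13.0 TPM in salt with drought and 12.3 TPM in salt with heat.

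ELF3 on 1B was lowest in heat. The control libraries held 8.24, 8.95, 6.12 and 9.28 TPM, and the heat libraries 4.76, 7.14, 6.36 and 7.92 TPM. The lowest value of all came from heat replicate 1, where the 100 most abundant gene models took 36.1% of TPM, the highest share of any library. The remaining groups averaged 7.04 TPM in drought, 8.61 TPM in salt, 7.49 TPM in heat with drought, 8.95 TPM in salt with drought, 8.60 TPM in salt with heat and 8.24 TPM under all 3 stresses. Every stress group overlapped control.

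ELF3 on 1D followed with the same extremes. The control libraries held 9.10, 8.95, 7.02 and 9.69 TPM, and the heat libraries 5.96, 7.80, 5.22 and 7.83 TPM. Salt with drought was the highest group at 9.42, 9.83, 9.45 and 10.8 TPM. Every stress group overlapped control here too. The remaining means were 8.09 TPM in drought, 9.02 TPM in salt, 8.10 TPM in heat with drought, 9.15 TPM in salt with heat and 9.08 TPM under all 3 stresses.

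**Figure D1:**
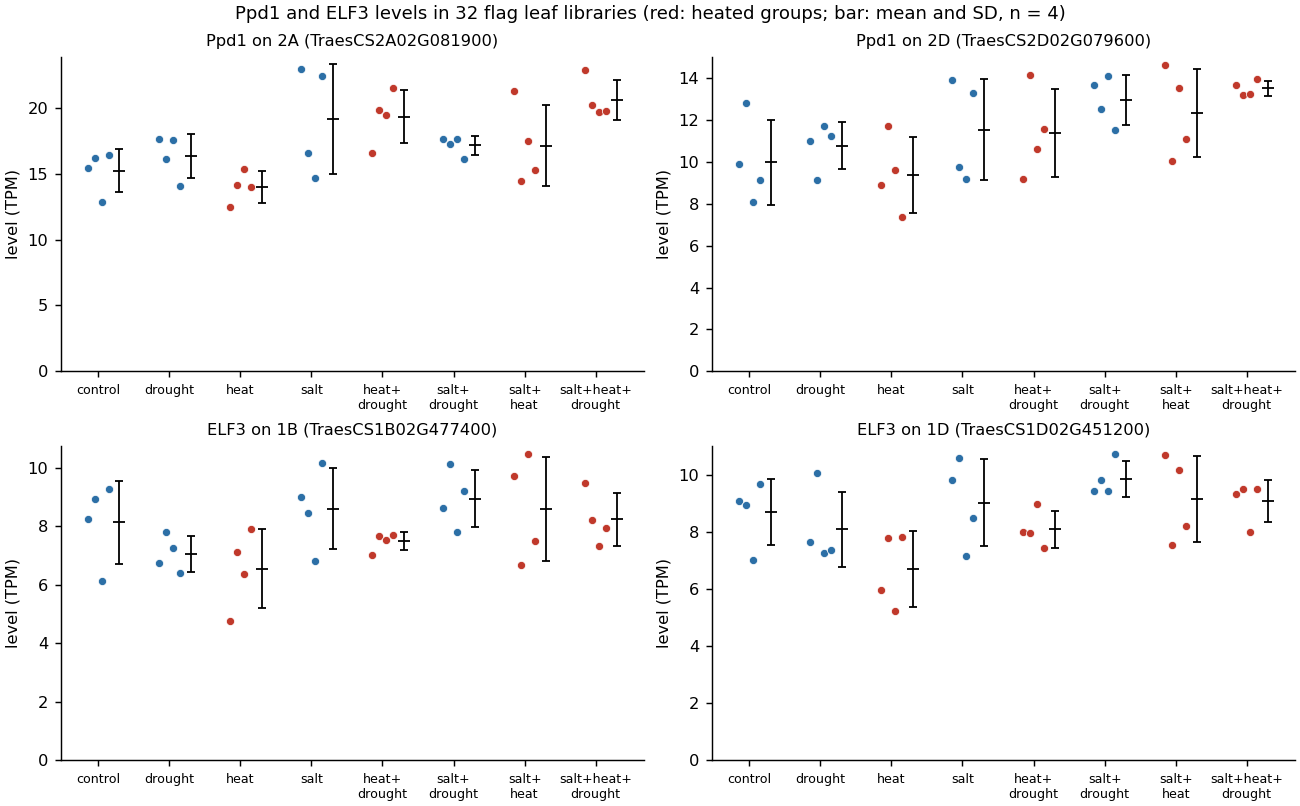
Levels of the 4 gene models in TPM (vertical axis, from 0) in the 8 treatment groups (horizontal axis), 1 point per library, with a bar for the mean and SD of 4 libraries and heated groups in red. Ppd1 on 2A lies above control in heat with drought and under all 3 stresses, and heat alone has the lowest mean TPM of each gene.

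Ordered by mean TPM, heat alone was the lowest group for each of the 4 genes. The highest group was all 3 stresses for Ppd1, 1.47 times the heat mean on 2A and 1.44 times on 2D. For ELF3 it was salt with drought, 1.37 times the heat mean on 1B and 1.47 times on 1D. Neighbouring groups in these orders seldom differed by more than their spread. Of 7 neighbouring pairs per gene, none exceeded the larger SD of the pair for both Ppd1 copies and ELF3 on 1B, and 1 did for ELF3 on 1D, the step from heat to drought. After quantile normalisation the order changed in part. Heat alone was still the lowest group for both ELF3 copies, but the lowest group was salt with heat for Ppd1 on 2A, at 15.1 beside 15.5 in control and 15.6 in heat, and control for Ppd1 on 2D, at 10.3 beside 10.6 in heat. The highest ELF3 means were then 8.54 in salt on 1B and 9.67 in drought on 1D.

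Salt was the stress with which the 4 genes were higher in TPM. Averaged over backgrounds, this difference was close to 0 once libraries were rescaled. Ppd1 on 2A ranged from 14.4 to 22.9 TPM with salt, median 17.6, and from 12.5 to 21.5 TPM without it, median 16.1. Ppd1 on 2D ranged from 9.18 to 14.6 TPM with salt, median 13.3, and from 7.35 to 14.1 TPM without it, median 10.2. The ranges overlapped widely and the medians were higher with salt. The 100 most abundant gene models took from 13.6% to 24.2% of TPM in the 16 libraries with salt and from 20.8% to 36.1% in the 16 without it. ELF3 on 1B had a median of 8.54 TPM with salt (6.69 to 10.5) and 7.40 TPM without (4.76 to 9.28). ELF3 on 1D had a median of 9.47 TPM with salt (7.14 to 10.8) and 7.81 TPM without (5.22 to 10.1). In mean level the difference was 14.1% and 21.3% for Ppd1 on 2A and 2D, and 17.7% and 17.6% for ELF3 on 1B and 1D.

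In limma, which averaged the salt difference over the 4 backgrounds (control, heat, drought, and heat with drought), 4 of 4 members were higher with salt at an adjusted p under 0.05. Of all gene models tested, 32.9% were called in this comparison, 29.0% higher and 3.95% lower. The log2 differences, on the log2(TPM + 1) scale, were 0.18 for Ppd1 on 2A (SE 0.07, adjusted p = 0.0413) and 0.26 for Ppd1 on 2D (SE 0.08, adjusted p = 0.0135). They were 0.21 for ELF3 on 1B (SE 0.07, adjusted p = 0.0295) and 0.22 for ELF3 on 1D (SE 0.07, adjusted p = 0.0200). The median gene model moved by 0.17 in the same direction, so the members exceeded it by between 0.01 and 0.09. After quantile normalisation the salt difference was -0.001 for Ppd1 on 2A, 0.07 for Ppd1 on 2D, 0.02 for ELF3 on 1B and 0.03 for ELF3 on 1D. Then 0 of 4 members passed, none at an unadjusted p under 0.05, against 19.7% of all gene models. Median-of-ratios scaling gave -0.03, 0.05, 0.01 and 0.01 in the same order, with 0 of 4 called against 19.8%. For Ppd1 on 2A these averages joined values of both signs. Salt added to control, heat, drought, and heat with drought gave 0.28, -0.03, -0.24 and 0.00 after quantile normalisation. After median-of-ratios scaling the values were 0.23, -0.05, -0.32 and 0.00, and none passed after adjustment on either scale. In TPM the call of Ppd1 on 2A was lost on leaving out any of 14 single libraries, with values from 0.15 to 0.18 and adjusted p up to 0.0763. These were control 3, drought 4, heat 1, salt 1 and 4, heat with drought 1 and 3, salt with drought 1, 2 and 3, salt with heat 1 and 3, and replicates 1 and 2 of all 3 stresses. That of ELF3 on 1B was lost on leaving out any of 7, with values from 0.18 to 0.20 and adjusted p from 0.0511 to 0.0537: control 3, heat 1, salt 4, salt with drought 2, salt with heat 1 and 3, and replicate 1 of all 3 stresses. Ppd1 on 2D and ELF3 on 1D kept their calls in all 32 cases. Without the 4 libraries that stood apart, ELF3 on 1B was at 0.16 (adjusted p = 0.0701) and ELF3 on 1D at 0.16 (adjusted p = 0.0505).

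**Figure D2:**
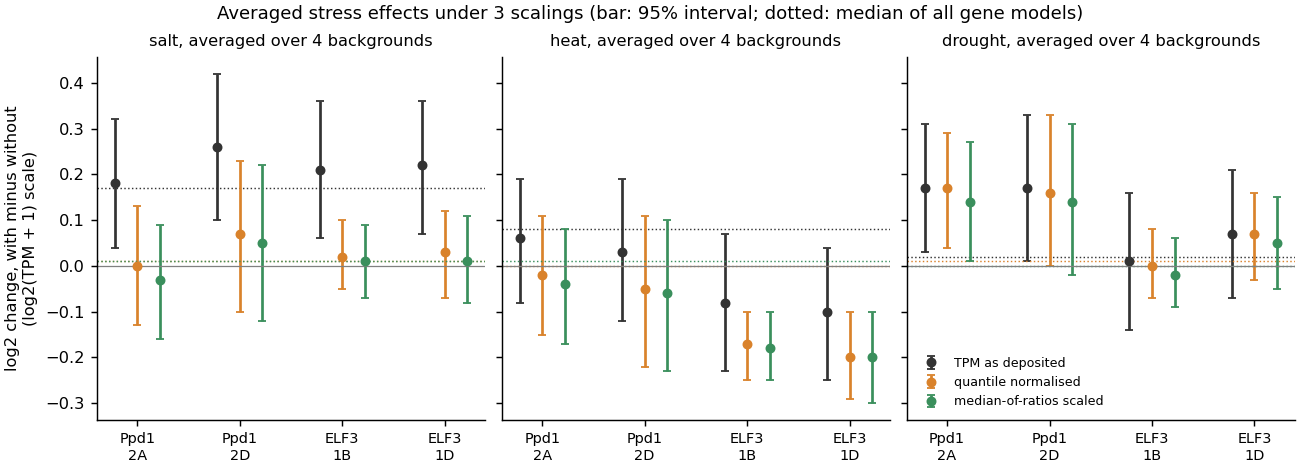
Log2 difference with minus without salt, heat or drought (vertical axis, log2(TPM + 1) scale) for the 4 gene models (horizontal axis), averaged over 4 backgrounds, with 95% intervals from limma and 3 colours for TPM as deposited, quantile normalised and median-of-ratios scaled values. Dotted lines give the median of all gene models under each scaling: the salt differences drop from 0.18 to 0.26 in TPM to values near 0 after rescaling, and the heat differences of ELF3 move from -0.08 and -0.10 to -0.17 and -0.20 after quantile normalisation.

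Both ELF3 copies were lower with heat once libraries were rescaled, a difference that did not pass the test in TPM. In TPM the averaged heat difference was -0.08 for ELF3 on 1B (SE 0.07, adjusted p = 0.525) and -0.10 for ELF3 on 1D (SE 0.07, adjusted p = 0.354), while the median gene model moved by 0.08 the other way. No member passed in TPM, at an adjusted or an unadjusted p under 0.05, where 9.77% of gene models were called. After quantile normalisation ELF3 on 1B ranged from 6.60 to 8.21 in the 16 heated libraries and from 7.49 to 9.55 in the 16 unheated ones. Its log2 difference was -0.17 (SE 0.04, 95% interval -0.25 to -0.10, adjusted p = 0.00177). ELF3 on 1D ranged from 6.37 to 9.31 with heat and from 7.38 to 10.6 without it, a log2 difference of -0.20 (SE 0.05, 95% interval -0.29 to -0.10, adjusted p = 0.00498). Both ELF3 copies fell on this scale, where 6.66% of all gene models were called lower and 12.4% in either direction.

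Once libraries were rescaled, the fall of ELF3 had the same sign in each background. After quantile normalisation the 1B mean was 8.33 in control and 7.19 in heat, 8.50 in drought and 7.26 in heat with drought, 8.54 in salt and 7.45 in salt with heat, and 8.28 in salt with drought and 7.50 under all 3 stresses. The 1D means were 8.94 and 7.40, 9.67 and 7.86, 8.99 and 7.97, and 9.17 and 8.31 in the same pairs. On this scale the heated mean was lower in 4 of 4 backgrounds for both copies. In TPM the log2 differences of 1B in the same backgrounds were -0.28, 0.08, -0.01 and -0.11. Those of 1D were -0.34, 0.01, 0.02 and -0.11, so the signs in TPM were mixed. Taken 1 background at a time, 0 of 8 quantile-normalised heat comparisons of ELF3 passed after adjustment, where 2.34% of gene models were called against control, 3.51% with drought, 3.87% with salt and 1.74% with salt and drought. Median-of-ratios scaling gave -0.18 for 1B (adjusted p = 0.00204) and -0.20 for 1D (adjusted p = 0.00482), with 12.9% of gene models called and 6.76% called lower. On leaving out each library in turn after quantile normalisation, 1B stayed between -0.18 and -0.16 (adjusted p from 9.99e-04 to 0.00393) and 1D between -0.22 and -0.18 (0.00145 to 0.0103). Without the 4 libraries that stood apart the values were -0.18 (adjusted p = 0.00530) and -0.20 (adjusted p = 0.0101). In a bulk leaf sample, fewer cells of a type and less RNA per cell cannot be told apart.

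For Ppd1 no fall with heat passed the test. The averaged heat difference in TPM was 0.06 for the 2A copy (SE 0.07, 95% interval -0.08 to 0.19) and 0.03 for the 2D copy (SE 0.08, 95% interval -0.12 to 0.19), and these became -0.02 (-0.15 to 0.11) and -0.05 (-0.22 to 0.11) after quantile normalisation. Neither passed the test under any of the 3 scalings. The quantile-normalised interval of 2D includes the ELF3 values of -0.17 and -0.20, and that of 2A does not. Whether the heat difference of Ppd1 departs from that of ELF3 was not tested.

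With drought, both Ppd1 copies had higher medians, but neither difference passed the adjusted test. Ppd1 on 2A had a median of 17.6 TPM with drought (14.0 to 22.9) and 15.4 TPM without (12.5 to 22.9). Ppd1 on 2D had a median of 12.1 TPM with drought (9.15 to 14.1) and 9.95 TPM without (7.35 to 14.6). The averaged log2 difference was 0.17 for 2A (SE 0.07, adjusted p = 0.280) and 0.17 for 2D (SE 0.08, adjusted p = 0.373), so neither passed after adjustment, although both had an unadjusted p under 0.05 (0.0189 and 0.0381). ELF3 stood at 0.01 on 1B and 0.07 on 1D. Drought gave few calls anywhere, 0.801% of gene models, and 0 of 4 members were among them. The Ppd1 values barely moved with quantile normalisation, at 0.17 and 0.16. Without the 4 libraries that stood apart, the quantile-normalised value of 2A was 0.23 (adjusted p = 0.0436). Those libraries were picked after the data were seen, and the share of gene models called in that fit is not given.

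Against control, 1 of 28 comparisons of a member with a stress group passed the test. It was Ppd1 on 2A under all 3 stresses, whose libraries, given above, all lay above control, with a log2 difference of 0.42 (SE 0.13, adjusted p = 0.0376). That comparison called 13.6% of all gene models tested, and 9.68% of all those tested were called higher. Ppd1 on 2D had the same log2 difference of 0.42 with a wider error (SE 0.16, adjusted p = 0.0687), and ELF3 stood at 0.02 on 1B and 0.06 on 1D. The call of Ppd1 on 2A was lost after quantile normalisation (0.29, adjusted p = 0.118) and after median-of-ratios scaling (0.21, adjusted p = 0.255). It was also lost on leaving out control replicate 1, 2 or 3 or any of the 4 stressed libraries, with values from 0.34 to 0.45 and adjusted p from 0.0529 to 0.130. Without control replicate 2, Ppd1 on 2D passed at 0.54 (adjusted p = 0.0338), and it also passed with a block by the number in the sample title, at 0.58 (adjusted p = 0.0280). The share of all gene models called in those 2 refits is not given. Ppd1 on 2D stood at 0.26 (adjusted p = 0.281) after quantile normalisation and at 0.22 (adjusted p = 0.381) after median-of-ratios scaling.

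The next comparisons with control did not pass. Ppd1 on 2A in heat with drought stood at 0.33 (SE 0.13, adjusted p = 0.238, with 2.58% of gene models called). Its libraries did not overlap control in TPM, and the median gene model stood at 0.09 in this comparison. ELF3 on 1D in heat stood at -0.34 (SE 0.14, adjusted p = 0.319, with 1.21% called). Ppd1 on 2D in salt with drought stood at 0.36 (SE 0.16, adjusted p = 0.242, with 1.79% called). In the other 3 groups, 1.33% of gene models were called in drought, 1.46% in salt and 9.51% in salt with heat, and no member was among them. In all, 6 of the 28 comparisons had an unadjusted p under 0.05.

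A stress was also added to each background of other stresses, in 36 comparisons of the 4 members. Of these, 0 passed in limma and 5 had an unadjusted p under 0.05. The background was low in most: drought called 0.694% of gene models when added to heat, 0.00494% when added to salt and 0.246% when added to both. Heat called 6.47% when added to drought, 2.23% when added to salt and 0.712% when added to both. Salt called 5.35% when added to drought, 11.1% when added to heat and 0.735% when added to both. The smallest adjusted p was 0.0557, for ELF3 on 1D in salt with heat against heat, with values of 10.7, 7.54, 10.2 and 8.22 TPM against 5.96, 7.80, 5.22 and 7.83 TPM. The groups overlapped, the log2 difference was 0.40 (SE 0.14), and 11.1% of gene models were called. It passed on leaving out control 3, drought 2, heat 2 or 4, salt 3 or salt with heat 2 or 4, with values from 0.40 to 0.48 and adjusted p from 0.0286 to 0.0479, with a filter of 5 TPM (adjusted p = 0.0397) and after rescaling to high-confidence gene models (0.41, adjusted p = 0.0461). It was 0.10 after quantile normalisation (adjusted p = 0.562), 0.11 after median-of-ratios scaling (adjusted p = 0.517) and 0.19 without the 4 libraries that stood apart (adjusted p = 0.509). In the compared groups alone it kept 0.40 with an adjusted p of 0.310. For the refits in which it passed, the share of all gene models called is not given. In TPM the largest difference was that of Ppd1 on 2A when drought was added to heat, from 12.5, 14.2, 15.4 and 14.0 TPM to 16.6, 19.8, 19.4 and 21.5 TPM. These groups did not overlap, and the log2 difference was 0.44 (SE 0.13, adjusted p = 0.111). That comparison called 0.694% of gene models, and its median gene model rose by 0.16. After quantile normalisation heat (12.9 to 18.6) and heat with drought (15.6 to 21.5) overlapped. Added to control, to salt and to salt with heat, drought gave 0.10, -0.13 and 0.27 for the same gene in TPM. Added to heat, to control, to salt and to salt with heat, it gave 0.30, 0.28, -0.24 and 0.33 after quantile normalisation and 0.23, 0.30, -0.24 and 0.28 after median-of-ratios scaling, none past the threshold. The value with heat was slightly above that with control on the first of these scales and below it on the other, and on neither was it the largest of the 36 differences.

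That pattern was examined as an interaction. For Ppd1 on 2A the effect of drought was larger with heat than without it by 0.37 on the log2 scale in TPM (SE 0.13, 95% interval 0.09 to 0.64), as an average over libraries with and without salt. The adjusted p was 0.249, and 0.359% of gene models were called, so the difference did not pass. It was 0.29 after quantile normalisation (95% interval 0.03 to 0.54, adjusted p = 0.308) and 0.22 after median-of-ratios scaling (-0.03 to 0.48, adjusted p = 0.458). The interaction of all 3 stresses for this gene was 0.05 in TPM (SE 0.27), 0.55 after quantile normalisation (SE 0.25, adjusted p = 0.348) and 0.60 after median-of-ratios scaling (SE 0.25, adjusted p = 0.303). The rescaled values had unadjusted p of 0.0357 and 0.0228 in limma. In TPM, for Ppd1 on 2D the interaction of heat by drought was 0.05 (SE 0.16), for ELF3 on 1B 0.13 (SE 0.15) and for ELF3 on 1D 0.11 (SE 0.14). Over the 3 interactions of 2 stresses and the 1 of all 3, 0 of 16 tests in TPM passed in limma and 1 had an unadjusted p under 0.05. Heat by salt called 0.0313% of gene models, drought by salt 0.259% and all 3 stresses 0.290%.

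The balance between homoeologues was measured within each library, where the scaling of the library nearly cancels. Ppd1 on 2A exceeded 2D by 0.56 ± 0.17 on the log2 scale (SD, n = 32), from 0.25 to 0.84. ELF3 on 1B stood below 1D by a mean log2 ratio of -0.10 ± 0.13 (SD, n = 32), from -0.33 to 0.24. By group the Ppd1 ratio was lowest in salt with drought, 0.38 ± 0.07 (SD, n = 4), and highest in heat with drought, 0.72 ± 0.18. In salt alone it was 0.68 with an SD of 0.04. The ELF3 ratio stayed between -0.17 in drought and -0.03 in heat.

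None of 20 permutation tests of these ratios passed, neither the averaged stresses nor the groups against control, with 0 at an unadjusted p under 0.05 and every adjusted p at 1. With 4 against 4 libraries the exact test has 70 splits, which limits how small its p can be. Adjusted over 20 tests, a single group comparison could not pass even at the smallest possible p. The tests of groups against control therefore cannot decide whether the balance changed in a group. For Ppd1 the averaged difference in the ratio was 0.02 with heat (95% interval -0.09 to 0.13), 0.00 with drought (-0.11 to 0.11) and -0.08 with salt (-0.19 to 0.03). For ELF3 it was 0.03 with heat (-0.08 to 0.13), -0.06 with drought (-0.17 to 0.04) and 0.00 with salt (-0.11 to 0.10). These intervals bound a change in the balance of the copies but do not show that there was none. Reads that fit both copies were divided between them by RSEM, and the split between near-identical copies is uncertain to that extent.

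Summed over their copies, Ppd1 exceeded ELF3 in 32 of 32 libraries. The ratio of summed TPM was 1.76 ± 0.256 (SD, n = 32), from 1.35 to 2.18. It was lowest in control, with 1.46, 1.62, 1.59 and 1.35, and highest under all 3 stresses, with 1.94, 1.89, 2.15 and 1.93. Those groups did not overlap. Heat with drought came next at 1.71, 2.18, 1.82 and 2.18. The mean ratio was 1.86 ± 0.245 with heat and 1.67 ± 0.237 without it, 1.84 ± 0.251 with drought and 1.68 ± 0.240 without, and 1.75 ± 0.221 with salt and 1.77 ± 0.293 without (SD, n = 16). The ratio was combined from members after their values were known, and it is given with no test.

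**Figure D3:**
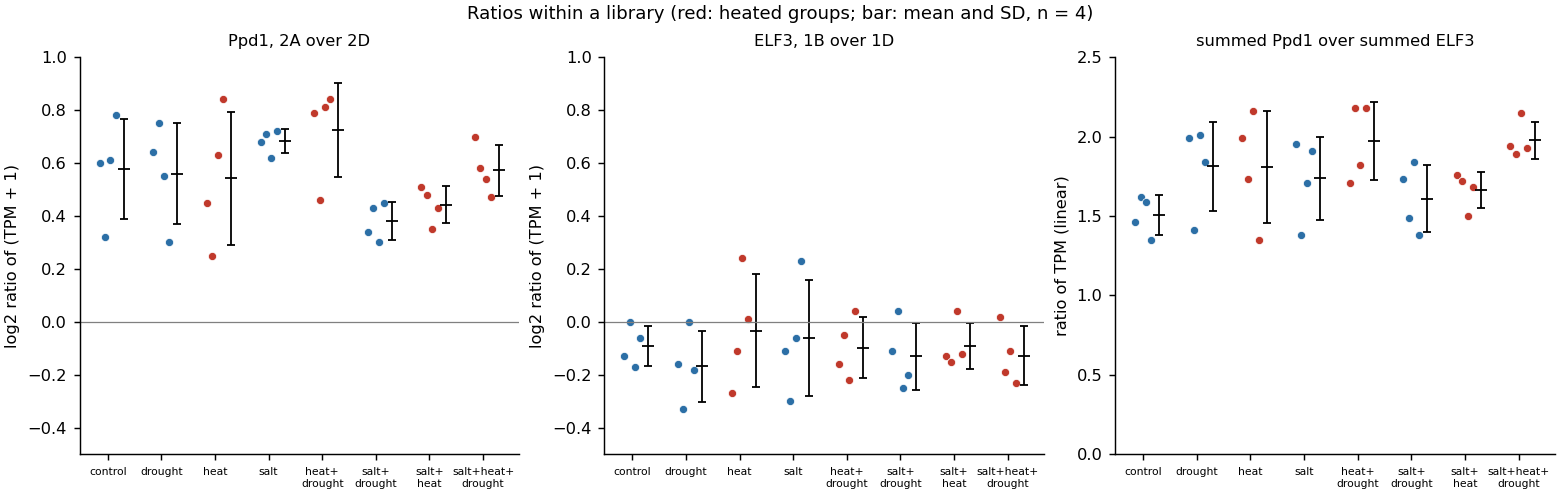
Ratios within a library (vertical axes) by treatment group (horizontal axes), 1 point per library, with a bar for the mean and SD of 4 libraries and heated groups in red: the log2 ratio of the Ppd1 copies, the log2 ratio of the ELF3 copies and the linear ratio of summed Ppd1 to summed ELF3. The Ppd1 log2 ratio is above 0 in all 32 libraries, the ELF3 log2 ratio lies on both sides of 0, and summed Ppd1 over ELF3 ranges from 1.35 to 2.18.

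The table also splits each gene model into transcripts, alternative forms of its RNA. The Ppd1 models carried several: 5 transcripts on 2A and 7 on 2D, of which 2 on 2D were at 0 in every library. ELF3 on 1B had 1 transcript, and on 1D transcript 1 held 99.2% of the TPM. On 2A, transcript 2 held 45.5% of the summed TPM, transcript 3 31.0%, transcript 1 14.3% and transcript 4 9.08%, while transcript 5 was above 0 in 1 library. On 2D, transcript 2 held 40.8%, transcript 1 36.4%, transcript 7 15.3%, transcript 4 6.10% and transcript 5 1.39%. What the Ppd1 transcripts encode is not annotated in the files.

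The share of transcript 2 of Ppd1 on 2A was higher with heat. Transcript 2 was the most abundant over the 32 libraries together, heated ones included. In control alone transcript 3 held a larger mean share, 39.3% against 30.6%. On 2D, transcript 1 held a larger mean share than transcript 2 in control, heat and salt. Shifts of transcript shares in other gene models were not examined. The control libraries had shares of 18.4, 25.7, 41.7 and 36.8%, and the heat libraries 57.0, 66.4, 41.9 and 44.1%. The drought libraries had 51.6, 40.1, 56.5 and 34.1%, and those of heat with drought 60.3, 63.0, 52.7 and 37.1%. Heat alone lay above all control libraries, by a narrow margin at control replicate 3, and the other pair overlapped. With salt the shares were 52.1, 33.8, 42.7 and 39.0%, and with salt and heat 53.1, 44.0, 57.6 and 44.5%. With salt and drought they were 45.3, 41.5, 30.0 and 37.0%, and under all 3 stresses 42.8, 57.3, 46.0 and 54.3%. The heated mean was higher in 4 of 4 backgrounds.

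Over all backgrounds the share was 51.4% ± 8.60 with heat and 39.1% ± 9.82 without it (SD, n = 16), a difference of 12.2 percentage points (95% interval 5.52 to 19.0). In a two-sided permutation test within backgrounds the p was 6.90e-04, and 0.00414 after adjustment over 6 tests of both Ppd1 copies and 3 stresses. On leaving out each library the difference stayed between 11.1 and 13.6 points (adjusted p from 4.80e-04 to 0.0139), and without the 4 libraries that stood apart it was 13.9 points (adjusted p = 0.0100). A share within a gene model does not depend on the scaling of the library. In TPM, transcript 2 stood at 9.09 ± 2.04 with heat and 6.72 ± 2.32 without, transcript 3 at 4.96 ± 1.59 and 5.81 ± 1.44, and transcript 1 at 2.01 ± 1.53 and 2.95 ± 1.89 (SD, n = 16). The log2 ratio of transcript 2 to transcript 3 was higher with heat by 0.72 (permutation test, adjusted p = 0.00900).

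Neither drought nor salt moved this share past the threshold. The differences were 3.18 points with drought (95% interval -3.54 to 9.90) and -0.398 points with salt (-7.12 to 6.32). For Ppd1 on 2D the share of transcript 2 differed by 3.92 points with heat (-3.06 to 10.9, permutation test, adjusted p = 0.519), 4.05 points with drought (-2.93 to 11.0) and 1.22 points with salt (-5.76 to 8.20). Whether the heat difference is larger on 2A than on 2D was not tested. Transcript shares are RSEM estimates from reads that several transcripts share, and transcript 1 of 2A, for example, was at 0 in 5 libraries.

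**Figure D4:**
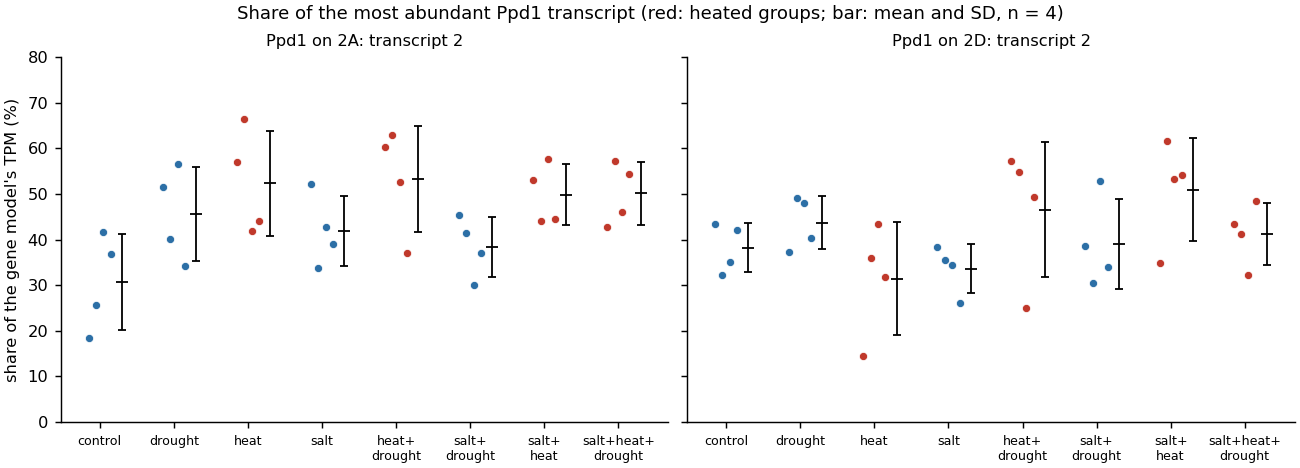
Share of transcript 2, the most abundant over all 32 libraries, in the TPM of its gene model (vertical axis, percent) by treatment group (horizontal axis) for Ppd1 on 2A and 2D, 1 point per library, with a bar for the mean and SD of 4 libraries and heated groups in red. On 2A the share averages 51.4% in heated and 39.1% in unheated libraries, and on 2D the groups overlap widely.

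Libraries of 1 treatment also differed among themselves, and the members shared part of that spread. With group means removed, Ppd1 on 2A and 2D correlated at Pearson r = 0.69 and Spearman rho = 0.69 over 32 libraries (permutation within groups, adjusted p = 0.00290 and 0.00276 over 6 pairs). Without the 2 libraries farthest from the median r was 0.64, and after quantile normalisation it was 0.74 (adjusted p = 3.60e-04). ELF3 on 1B and 1D correlated at r = 0.70 and rho = 0.67 (permutation, adjusted p = 0.00267 and 0.00276), and at 0.67 without the 2 farthest libraries. The ELF3 correlation was 0.04 after quantile normalisation (permutation, adjusted p = 0.899). The covariation of the Ppd1 copies was therefore present on both scales, and that of the ELF3 copies in TPM alone. The r between other gene models with group means removed is not given. Whether the copies vary together more than other gene models was not tested.

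Across the genes, Ppd1 on 2A and ELF3 on 1B correlated at r = 0.69 and rho = 0.64 (permutation, adjusted p = 0.00150 and 0.00276), with r = 0.64 without the 2 farthest libraries and 0.49 after quantile normalisation (adjusted p = 0.0402). With group means kept, such a correlation was not particular to this pair. Its r was then 0.61 in TPM, beside a median of 0.55 between ELF3 on 1B and 22232 high-confidence gene models. Among these, Ppd1 on 2A ranked 9321 for ELF3 on 1B, and ELF3 on 1B ranked 2469 for Ppd1 on 2A. The other 3 pairs did not pass, with r of 0.36 for Ppd1 on 2A and ELF3 on 1D, 0.40 for Ppd1 on 2D and ELF3 on 1B, and 0.16 for Ppd1 on 2D and ELF3 on 1D. Without heat replicate 4 the correlation of Ppd1 on 2D and ELF3 on 1B was 0.56 (permutation, adjusted p = 0.0156). The members were also set against the libraries' composition. TPM of a library add up to a fixed total, so a larger share for the 100 most abundant gene models leaves less for the rest. A negative r in TPM is thus partly built into the unit, and its size over all gene models is not given here. Against the share of TPM in the 100 most abundant gene models, group means removed, ELF3 on 1B had r = -0.77 and rho = -0.70 (permutation, adjusted p = 7.60e-04 and 0.00252 over 4 genes) and ELF3 on 1D r = -0.62 and rho = -0.61 (adjusted p = 0.0119 and 0.0130). Without the 2 farthest libraries these were -0.67 and -0.59. Ppd1 stood at r = -0.34 on 2A and -0.17 on 2D, neither past the threshold. After quantile normalisation the order turned, with r = 0.55 for Ppd1 on 2A, 0.53 for Ppd1 on 2D (both adjusted p = 0.0253), 0.02 for ELF3 on 1B and 0.34 for ELF3 on 1D.

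**Figure D5:**
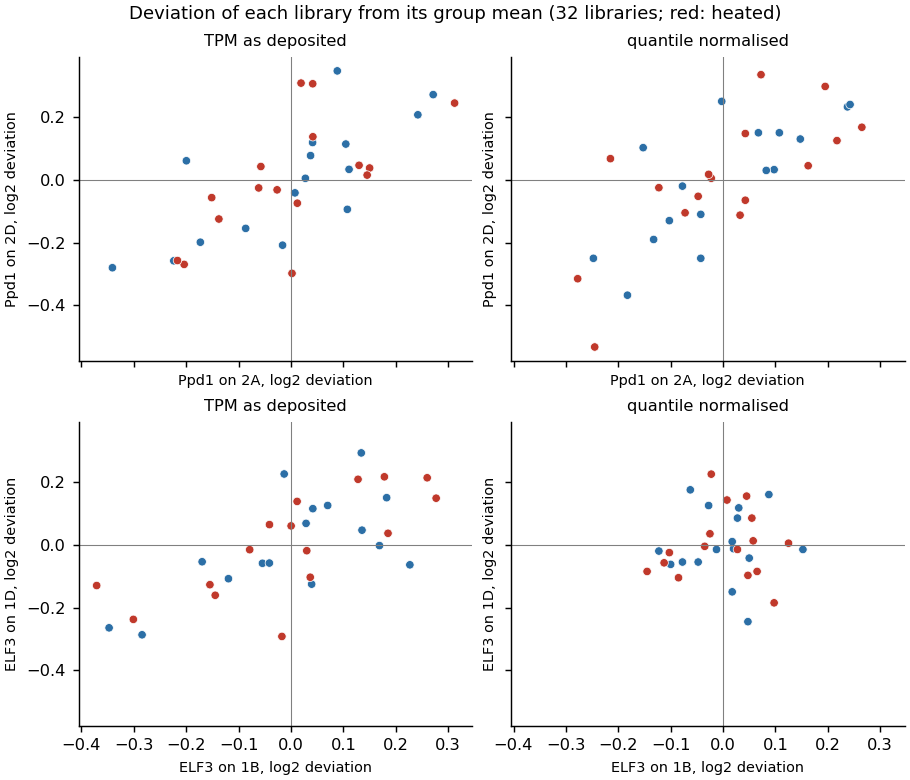
Deviation of each of 32 libraries from its group mean (log2 scale) for one homoeologue (horizontal axis) against the other (vertical axis), Ppd1 above and ELF3 below, in TPM as deposited on the left and quantile normalised on the right, heated libraries in red. The Ppd1 copies deviate together on both scales (r = 0.69 and 0.74), and the ELF3 copies in TPM (r = 0.70) but not after quantile normalisation (r = 0.04).

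Gene models with the most similar profile were looked up among 22232 of high confidence with a mean of at least 5 TPM, by Pearson r over the 32 libraries on the log2(TPM + 1) scale. This is a description: the libraries share their composition, and the median r to all compared gene models was already 0.55 for ELF3 on 1B, 0.49 for ELF3 on 1D, 0.36 for Ppd1 on 2A and 0.32 for Ppd1 on 2D. Closest to Ppd1 on 2A were TraesCS2D02G380900 (r = 0.89), TraesCS6D02G327400 (0.85) and TraesCS1A02G222900 (0.84). Closest to Ppd1 on 2D were TraesCS2B02G270600 (0.78), TraesCS2A02G527800 (0.77) and TraesCS3B02G227900 (0.76). The files do not annotate these identifiers. For ELF3 on 1B the closest were TraesCS4B02G137800 (0.95), TraesCS3B02G415500 (0.94) and TraesCS7A02G357100 (0.94), and for ELF3 on 1D TraesCS4D02G252000 (0.88), TraesCS5D02G147000 (0.87) and TraesCS6B02G434300 (0.86).

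The other homoeologue was not the closest profile of any member. With r = 0.74, Ppd1 on 2A ranked 12 for Ppd1 on 2D, and Ppd1 on 2D ranked 164 for Ppd1 on 2A. With r = 0.81, ELF3 on 1B ranked 62 for ELF3 on 1D, and ELF3 on 1D ranked 1679 for ELF3 on 1B.

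The members sit in matching places on their chromosomes, as far as the order of identifiers shows, and no coordinates were used here. Ppd1 was high-confidence gene model 805 of 5797 on 2A and 781 of 5865 on 2D. ELF3 lay near the far end, with 42 gene models after it on 1B and 37 on 1D. Of 107892 high-confidence gene models, 46155 passed the filter of 1 TPM in 4 libraries. That share was nearer to those around ELF3 than to those around Ppd1, a description with no test. Of the 20 nearest high-confidence gene models, 4 around Ppd1 on 2A and 3 around Ppd1 on 2D passed the filter of 1 TPM in 4 libraries, against 8 around ELF3 on 1B and 12 around ELF3 on 1D. With salt, 5 of the 8 tested neighbours on 1B and 6 of the 12 on 1D were called higher, with median log2 differences of 0.28 and 0.33, beside 0.21 and 0.22 for ELF3 itself and 29.0% of all gene models called higher. Around Ppd1 none of the 7 tested neighbours was called with salt. With heat, the median neighbour stood at 0.15 on 1B and 0.12 on 1D, where ELF3 stood at -0.08 and -0.10, and 1 of 8 and 0 of 12 neighbours were called, that 1 higher. Around Ppd1 the medians with heat were 0.19 on 2A and 0.28 on 2D, beside 0.06 and 0.03 for Ppd1 itself, and 2 of 4 and 1 of 3 neighbours were called higher. Each of the 4 members thus stood below the median of its neighbours with heat, a description with no test. All 4 neighbour medians lay above the median gene model, which stood at 0.08 with heat, where 9.77% of gene models were called. Of all gene models, 55.9% had a larger heat difference than Ppd1 on 2A and 61.1% than Ppd1 on 2D. For ELF3 these shares were 81.3% on 1B and 84% on 1D.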

How the data were processed

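Flag leaf RNA of 32 libraries in 8 groups of 4 was grouped by the source name in the labels. The authors deposited TPM per transcript, made with STAR and RSEM 1.3.3 per the submitters' processing notes, on the IWGSC 1.1 annotation per the series text. CASAVA and Trimmomatic are named without a version. It listed 298774 transcripts, and the TPM of a library added up to 1000000 within 3. TPM of transcripts were summed to 269428 gene models. TPM keep no depth, so counting intervals and count models were left out. Reads matching several transcripts are apportioned among them by RSEM.

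The tests covered the 60684 gene models that reached 1 TPM in 4 or more libraries (46155 of high confidence), on log2(TPM + 1), a scale that understates changes of low genes. limma 3.58.1 in R 4.3.3 fitted 1 mean per group with a trend and 24 residual degrees of freedom. Tests were two-sided, with Benjamini-Hochberg adjustment over all gene models in each comparison and a threshold of 0.05. The fit was tested on simulated data. Comparisons that share control libraries are not independent of each other. Ratios, transcript shares and correlations were tested by permutation with 100000 resamples, or exactly over 70 splits for 4 against 4 libraries. The permutations were coded in numpy 2.4.6, with ranks for Spearman rho from scipy 1.17.1. Homoeologue ratios are log2 of (TPM + 1) over (TPM + 1). Shares were tested for members with at least 2 transcripts of mean 1 TPM or more. The alternatives were a pseudocount of 0.1, a filter of 5 TPM and no filter, median-of-ratios scaling, quantile normalisation, blocks by replicate or title number, the compared groups alone, the most abundant transcript alone, and each library left out. Added after the data were seen were the fits without the 4 libraries that stood apart, rescaling to high-confidence gene models, each library left out of the correlations and transcript shares, the replicate block for transcript shares, and the refits of the averaged effects after quantile normalisation (each library left out, both blocks, the filter of 5 TPM).

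The 4 members are named in every comparison. Beside them, the 3 most similar gene models of each member were named, and 10 gene models on each side of a member were summarised. The members, the rule and the comparisons were chosen with earlier results of these data known. A list of other clock and photoperiod genes and a check of leaf genes were not used, because a reference table of 155467 wheat genes matched 0 identifiers. No sequences are shown for the same reason.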

Additional observations from a re-analysis of the deposited data

Results flagged for a closer look

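In groups of 4 libraries, a library was singled out where its gap to the nearest of the others was a larger part of the range of the group than Dixon's critical value allows at 95%. Of 72 groups screened, 5 held such a library, and chance gives about 1 in 20. Ppd1 on 2A had 22.9 TPM in replicate 1 of all 3 stresses, against 19.7 to 20.2 TPM in the other libraries of that group. ELF3 on 1D had 10.1 TPM in drought replicate 2, against 7.27 to 7.66 TPM, and 8.00 TPM in replicate 3 of all 3 stresses, against 9.32 to 9.52 TPM. The log2 ratio of Ppd1 on 2A over 2D was 0.46 in replicate 2 of heat with drought, against 0.79 to 0.84. The log2 ratio of ELF3 on 1B over 1D was 0.04 in replicate 3 of salt with heat, against -0.15 to -0.12.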

How the results depend on the processing

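TPM keep no depth, so counting error could not be separated from the spread between libraries, and changes in total RNA per cell cannot be seen in relative values. The pseudocount changed no call. Averaged salt differences under median-of-ratios scaling, quantile normalisation and quantile normalisation without the 4 libraries that stood apart were -0.03, -0.001 and 0.07 for Ppd1 on 2A, 0.05, 0.07 and 0.14 for Ppd1 on 2D, 0.01, 0.02 and 0.04 for ELF3 on 1B, and 0.01, 0.03 and 0.04 for ELF3 on 1D, none past the threshold. The same 3 settings gave heat differences of -0.04, -0.02 and -0.07 for Ppd1 on 2A, -0.06, -0.05 and -0.10 for Ppd1 on 2D, -0.18, -0.17 and -0.18 for ELF3 on 1B, and -0.20, -0.20 and -0.20 for ELF3 on 1D, the ELF3 values past the threshold. They gave 0.21, 0.29 and 0.33 for Ppd1 on 2A under all 3 stresses, not past it (adjusted p from 0.0676 to 0.255). Without a filter on low values the salt difference of Ppd1 on 2A stayed at 0.18 with an adjusted p of 0.0555. Without the 4 libraries, salt gave 0.16 for both ELF3 copies (adjusted p = 0.0701 on 1B and 0.0505 on 1D), heat gave -0.01 for Ppd1 on 2D, drought gave -0.09 and -0.03 for ELF3 on 1B and 1D, and Ppd1 on 2A under all 3 stresses stood at 0.34 (adjusted p = 0.0715). Drought for Ppd1 on 2A reached 0.23 (adjusted p = 0.0436) in quantile-normalised values without them. ELF3 on 1B with drought was -0.02 under median-of-ratios scaling and -0.004 after rescaling to high-confidence gene models. In the compared groups alone, Ppd1 on 2A under all 3 stresses kept 0.42 with an adjusted p of 0.0617.

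Of the 28 comparisons with control, 0 passed under these scalings, in the compared groups alone or without the 4 libraries, and 2 passed with a block by title number, Ppd1 on 2A (0.54, adjusted p = 0.0392) and Ppd1 on 2D (0.58, adjusted p = 0.0280) under all 3 stresses. Of the 36 comparisons of an added stress, 1 passed with a filter of 5 TPM and 1 after rescaling to high-confidence gene models. For the title block, that filter, that rescaling and the fits without the 4 libraries, the share of all gene models called is not given. The correlation of the ELF3 copies was 0.04 after quantile normalisation. On leaving out 1 library at a time, the ranges were 0.15 to 0.21 for salt in Ppd1 on 2A, 0.18 to 0.24 for salt and -0.02 to 0.03 for drought in ELF3 on 1B, 0.34 to 0.45 for Ppd1 on 2A under all 3 stresses, 0 to 1 of the 28 and 0 to 2 of the 36 comparisons, and 0.32 to 0.56 for the correlation of Ppd1 on 2D and ELF3 on 1B. The cause of these changes was not tested. Sign changes among the 28, 36 and 16 single comparisons under quantile normalisation numbered 9, 14 and 5, and in no case was the value past the threshold on both scales.

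Replicate numbers are shared between groups but do not pair the libraries: of 112 same-numbered pairs, 27 had a correlation of deviations over 0.1, with a median of 0.01. Title numbers do not pair them either: of 56 pairs of libraries with the same title number in different groups, 14 had a correlation over 0.1, with a median of -0.01. With a replicate block no call changed among the 27 results refitted. The salt difference of Ppd1 on 2D with the block was 0.26 (adjusted p = 0.0171).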

Other observations

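Transcript 7 of Ppd1 on 2D, which was not the most abundant transcript and entered no test, held 17.6% ± 4.92 of the TPM of its gene model with heat and 12.7% ± 3.16 without it (SD, n = 16). In TPM it stood at 2.07 ± 0.751 with heat and 1.43 ± 0.434 without. This transcript was chosen after its values were seen. Transcript 1 of Ppd1 on 2A held 11.0% ± 7.32 with heat and 17.2% ± 11.1 without it (SD, n = 16), and was at 0 in 5 of the 32 libraries.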
